A study of Rattus norvegicus with 8 samples.

Results

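Myelin is the stack of lipid-rich membrane that oligodendrocytes wrap around axons of the central nervous system, and 9 genes of this membrane were followed through contused rat spinal cord. The genes were taken by symbol from the deposited feature list and were Mbp, Mag, Mog, Mobp, Cnp, Mal, Cldn11, Ermn and Ugt8, which are 9 of 32623 genes in that list. Each symbol matched a single gene, and all 9 had unique molecular identifier (UMI) counts in the files.

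The series held 8 single-cell libraries of spinal cord from 8-week-old female Wistar rats, made on droplets with 3′ end counting. The 4 groups had 2 libraries each. The sham rats had a laminectomy and no contusion, and the mild, moderate and severe rats had a laminectomy and a contusion at T9 by a 10 g weight dropped from 12.5, 25 and 50 mm. Tissue from all groups was taken 7 days after surgery, from 5 mm rostral and 5 mm caudal of the lesion core.

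After quality control 55449 of 68658 cells were kept, 2337 to 10009 per library, with 2745 to 10814 median UMIs per cell. The library sham 1 stood apart: it had the lowest median UMIs and 4779 of the 4890 cells named neutrophils. A further 5631 cells had neutrophils as their best-scoring type and were left unnamed, with low UMIs (median 927). Mild 1 gave the largest part of these, 37.9%, so the named cells are not all neutrophils of the series. Sham 2 had 45 oligodendrocytes, the fewest of any library. Tests between groups that rest on sham 1 are therefore given with and without it. Means by cell type, pooled shares, and the comparisons with fibroblasts or in UMIs per cell are given only with sham 1 included. Any 2 libraries shared at most 0.452% of the cell barcodes of the smaller one.

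Compact myelin is held together by myelin basic protein, encoded by Mbp, and by the product of Mobp. Cnp encodes the enzyme 2′,3′-cyclic nucleotide 3′-phosphodiesterase of the non-compact loops, Mag the adhesion molecule that faces the axon, and Mog a glycoprotein of the outermost surface. Cldn11 encodes the claudin of the myelin tight junctions, Mal a proteolipid of membrane sorting, Ermn the cytoskeletal protein ermin and Ugt8 the enzyme that makes galactosylceramide. Oligodendrocyte precursors divide, commit and then switch these genes on under SOX10, OLIG factors and MYRF, and after injury phagocytes take up myelin debris that carries lipid, protein and some RNA.

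The sequence just before the start site is shown for 3 members because it differs in the short words bound by SOX proteins (ACAAAG, or CTTTGT on the other strand) and by MYRF (CTGGCAC or CTGGTAC, with GTGCCAG and GTACCAG on the other strand). RefSeq promoters of the GRCr8 assembly were at hand for 7 of the 9 members, as 8 entries because Mbp has 2 start sites, and Mog and Ermn had no entry. The 250 bases before the start of Mobp (chr8:128746982-128747231, plus strand), Cnp (chr10:86011254-86011503, plus strand) and Mag (chr1:95291045-95291294, minus strand) follow, 5′ to 3′, with matches of these words in capitals.
Mobp: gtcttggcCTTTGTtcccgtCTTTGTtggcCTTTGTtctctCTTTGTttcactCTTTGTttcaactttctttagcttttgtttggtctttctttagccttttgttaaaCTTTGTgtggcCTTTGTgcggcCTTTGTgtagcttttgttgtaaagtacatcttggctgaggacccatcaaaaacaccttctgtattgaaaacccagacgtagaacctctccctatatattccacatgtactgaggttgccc
Cnp: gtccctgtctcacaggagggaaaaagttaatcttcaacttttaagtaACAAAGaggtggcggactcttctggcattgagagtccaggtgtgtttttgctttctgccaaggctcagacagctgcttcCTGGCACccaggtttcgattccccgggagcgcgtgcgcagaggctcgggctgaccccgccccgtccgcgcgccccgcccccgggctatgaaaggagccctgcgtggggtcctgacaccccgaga
Mag: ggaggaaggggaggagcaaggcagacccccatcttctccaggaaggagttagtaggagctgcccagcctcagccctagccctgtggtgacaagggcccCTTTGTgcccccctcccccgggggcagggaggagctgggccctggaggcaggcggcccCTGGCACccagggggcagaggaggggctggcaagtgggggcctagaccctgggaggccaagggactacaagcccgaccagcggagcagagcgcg

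Mobp held 8 matches of ACAAAG, all on the reverse strand, a number reached by 2 of 33469 rat promoters of this length (0.00598%). Cnp and Mag each held 1 match of ACAAAG and 1 of CTGGCAC. Mal held 1 CTGGCAC, Cldn11 1 CTGGTAC, the second Mbp start 1 ACAAAG and Ugt8 none. Over all 33469 promoters 16.3% held ACAAAG, 3.78% CTGGCAC and 1.78% CTGGTAC, and no match of one word overlapped a match of another. A match describes the letters only, and binding was not measured.

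Oligodendrocytes held most of the myelin RNA. These 3798 cells were 6.85% of the kept cells and carried 1308289 of the 1511271 UMIs of the 9 genes (86.6%). Their share of the UMIs ran from 60.6% in moderate 2 to 92.5% in sham 1. By gene, oligodendrocytes held 97.0% of the Ermn UMIs, 96.8% of Mog, 95.8% of Mag, 95.4% of Mal and 94.7% of Mobp. The share was lower for Ugt8 (90.9%), Cldn11 (90.3%) and Mbp (89.6%), and lowest for Cnp (70.6%). The oligodendrocyte precursors held 19.3% of the Cnp UMIs, 5.43% of Cldn11 and 5.15% of Ugt8, and the macrophages and microglia held 5.86% of Cnp and 4.46% of Mbp.

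Levels are given as CPM, the UMIs of a gene per 1000000 UMIs of the same cells in a library, and 3′ tags do not grow with transcript length. In oligodendrocytes the mean over the 8 libraries was 8897 ± 3090 CPM for Mbp (SD, n = 8), 6540 ± 2097 for Cnp, 5697 ± 1967 for Cldn11 and 3601 ± 838 for Mag. Mal stood at 2015 ± 940 CPM, Mog at 1550 ± 457, Mobp at 1382 ± 326, Ermn at 1051 ± 402 and Ugt8 at 870 ± 221. Neighbours in this order lay closer than the larger of their SDs, except Cldn11 and Mag, and Mag and Mal. Together the 9 genes made up 21676 to 46401 CPM of an oligodendrocyte library. In precursors Cnp was the leading member at a mean of 1667 CPM, before Cldn11 at 331 and Mbp at 166. Outside the lineage, Cnp was the highest member in dendritic cells and monocytes (401), astrocytes (271) and T and NK cells (212), Cldn11 was in fibroblasts (122), and Mbp was in neutrophils (199) and erythrocytes (46). In endothelial cells Cnp had the highest mean and Mbp was at 56. There Cnp lay below Mbp in sham 1 (92.6 against 155). It lay above Mbp in sham 2 (35.4 against 31.8), mild 2 (118 against 55.2), severe 1 (36.4 against 14.3) and severe 2 (46.4 against 23.6).

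**Figure D1:**
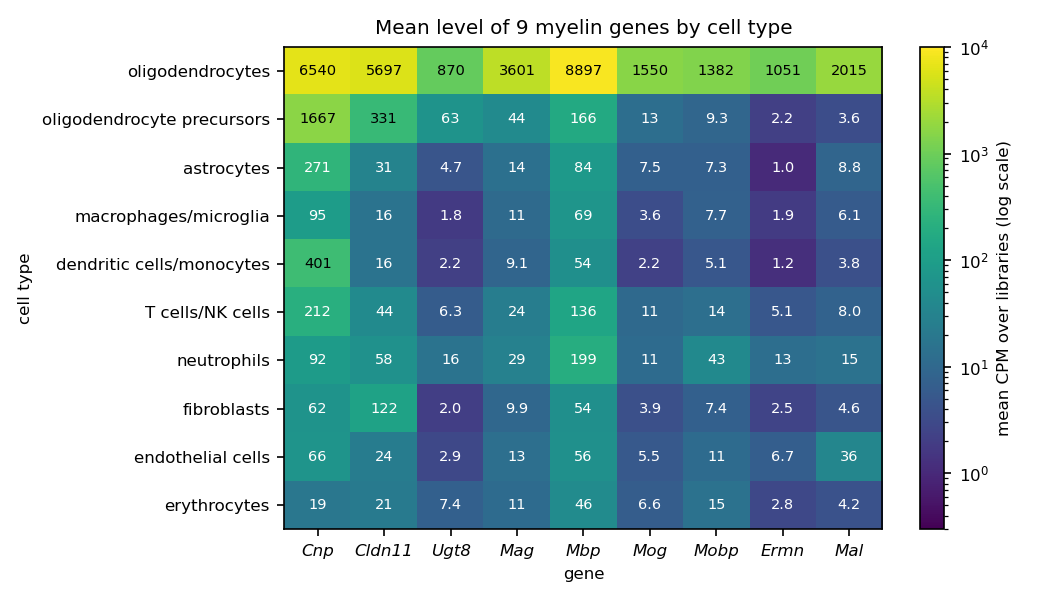
Mean level of each of the 9 myelin genes (columns) in each cell type (rows) in CPM over the libraries with at least 20 cells of that type, on a log colour scale with the value printed in each cell. Oligodendrocytes hold the highest value in every column, from 870 for Ugt8 to 8897 for Mbp, and the precursor row is led by Cnp at 1667.

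Cells were clustered without the 9 genes, so that the groups of cells were not drawn from the members themselves, although genes that vary with them did take part. The summed level of the oligodendrocyte marker list was 9281 to 16136 CPM in oligodendrocytes and 522 to 2321 CPM in precursors. The genes outside the members whose log2 CPM followed the summed members most closely over 63 combinations of library and type were Tubb4a (r = 0.934), Fa2h (r = 0.933), Faim2 (r = 0.931), Elavl3 (r = 0.930) and Gjb1 (r = 0.928). These points share libraries and depth, and the r is a description.

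The 9 genes were at different levels at different stages of the lineage. Among 13 clusters of the lineage, 1 was led by Cdkn1c, Pnlip, Sirt2, Bmp4 and Fyn and had the highest sum of the committed precursor markers. It is called the committed cluster here. Its level was set against that of oligodendrocytes of the same library in the 5 libraries with at least 20 of its cells, mild 1, mild 2, moderate 1, moderate 2 and severe 2. In CPM, Cnp in the committed cluster was above oligodendrocytes, at a median of 138% of their level and between 115% and 152% over the 5 libraries. The order turned with the scale. As UMIs per cell, Cnp in that cluster was at 93.4 in mild 1, 35.7 in moderate 1, 49.1 in moderate 2 and 108 in severe 2. The main mature clusters of these libraries were at 109 to 145, 53.8 to 65.1, 66.8 to 78.4 and 188. In mild 2 it was at 61.6, beside 90.8, 70.2 and 48.3 in the mature clusters. Cldn11 was at 54.7% (33.0% to 67.7%) and Ugt8 at 46.8% (37.9% to 79.4%). Mag followed at 27.1% (13.3% to 29.5%), Mbp at 15.5% (3.02% to 26.7%) and Mog at 10.4% (4.11% to 14.8%).

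Mobp, Ermn and Mal were close to absent from the committed cluster. Mobp was at a median of 0.508% of the oligodendrocyte CPM with a highest value of 2.87%, Ermn at 0.463% with a highest value of 2.62%, and Mal at 0% with a highest value of 3.77%. All 61 Mal UMIs of the committed cluster came from mild 2. Within each of the 5 libraries Cnp was the highest of the 9 by this measure, and Mobp, Ermn and Mal were the 3 lowest. The order is a description of clusters formed from these cells and carries no test.

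**Figure D2:**
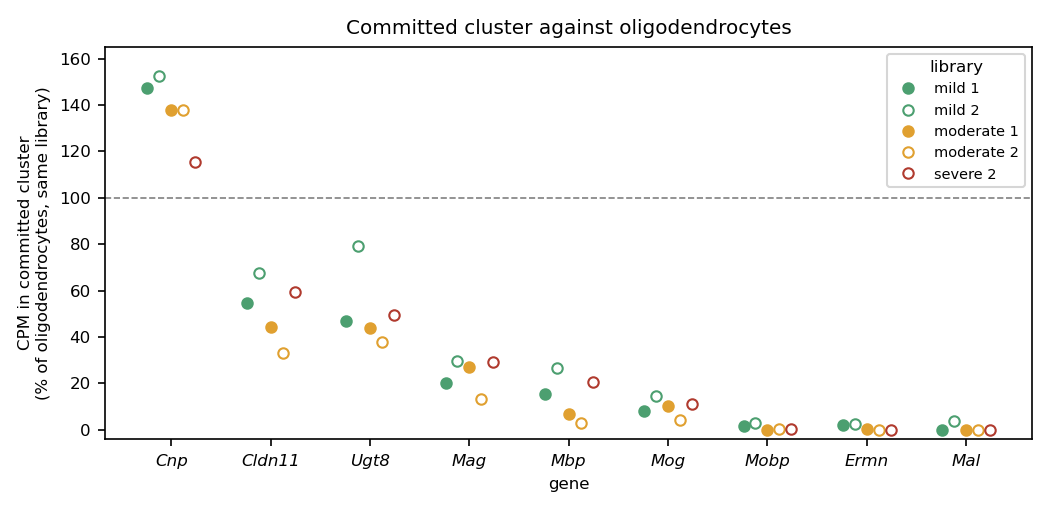
CPM of each gene in the committed cluster as a percent of its CPM in oligodendrocytes of the same library (vertical axis, linear), 1 point per library for 5 libraries, with a dashed line at equality. Cnp lies above the line in all 5 libraries and Mobp, Ermn and Mal lie at or under 3.77%.

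Pooled over all 8 libraries, Cnp was higher along the lineage from 1242 CPM in the other precursors to 9188 in the 283 cells of the committed cluster and then stood at 6404 in oligodendrocytes. Cldn11 went from 190 to 2676 and 5314 CPM, and Mag from 10.4 to 900 and 3765. Mbp went from 75.9 to 1426 and 7115 CPM. Mobp moved from 5.35 to 27.8 and 1444 CPM, and Mal from 2.70 to 30.8 and 1975, so that nearly all of their level lay in oligodendrocytes. Of the precursors outside the committed cluster, the level was 19.4% of the oligodendrocyte level for Cnp, 3.57% for Cldn11, 2.90% for Ugt8 and at most 1.07% for the other 6.

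A further cluster of 41 cells that was grouped with oligodendrocytes had Pmp22, a gene of Schwann cell myelin, among its leading genes. It held 2718 CPM of Mbp, 1206 of Mal and 1221 of Cnp, while Mag was at 267 and Mog, which is known from central myelin, at 22.9. Sham 1 gave 78% of its cells. Along with 2 clusters with neutrophil markers it is left out where stated below, and the stage values above were computed without these 3 clusters.

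The next comparison asked whether the myelin RNA of an oligodendrocyte differed with the grade of injury. Sums of UMIs per library were tested with edgeR's quasi-likelihood test over all genes, with Benjamini-Hochberg adjustment at 0.05. The number of oligodendrocytes behind a library was 45 to 1336, and the 2 libraries of a group may differ for technical reasons, since no source tells whether each was 1 rat.

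Mbp, the most abundant member, was at 5157 CPM in sham 1 and 10592 in sham 2. It was at 7480 and 6352 in mild, 7419 and 7705 in moderate, and 13585 and 12887 in severe. Both severe libraries were above all others, and the 2 sham libraries spanned all mild and moderate values.

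Mog was at 1640 and 1669 CPM in sham, 1410 and 1245 in mild, 1203 and 891 in moderate, and 2185 and 2158 in severe. Its libraries ran in the order severe, sham, mild, moderate. Mag was at 3351 and 2959 in sham, 4328 and 3670 in mild, 2793 and 2503 in moderate, and 4750 and 4454 in severe, with mild above sham. How often libraries separate by group over all genes was not counted in any cell type. Such orders of the members, here and below, are descriptions and no result about them.

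Mal was at 2302 and 1872 CPM in sham, 1542 and 1921 in mild, 1237 and 869 in moderate, and 3954 and 2426 in severe. Cldn11 was at 5950 and 7136 in sham, 5549 and 4327 in mild, 3861 and 2930 in moderate, and 8962 and 6863 in severe. For both genes the moderate libraries were the lowest pair, and for Mal the severe libraries were the highest pair, while severe and sham overlapped for Cldn11.

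Cnp was at 3446 and 6026 CPM in sham, 8531 and 6677 in mild, 5638 and 4270 in moderate, and 9174 and 8553 in severe. Ugt8 was at 834 and 1172 in sham, 596 and 540 in mild, 995 and 869 in moderate, and 1092 and 863 in severe. Ugt8 was lowest in mild, whose libraries lay below all others, whereas Cnp in mild lay above sham and moderate.

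Ermn, a late gene of the lineage, was at 1610 and 1269 CPM in sham, 480 and 727 in mild, 1354 and 612 in moderate, and 1288 and 1064 in severe. Mobp was at 1936 and 1218 in sham, 946 and 1407 in mild, 1678 and 1027 in moderate, and 1411 and 1435 in severe. The severe libraries of Mobp lay inside the range of the sham and of the moderate libraries.

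**Figure D3:**
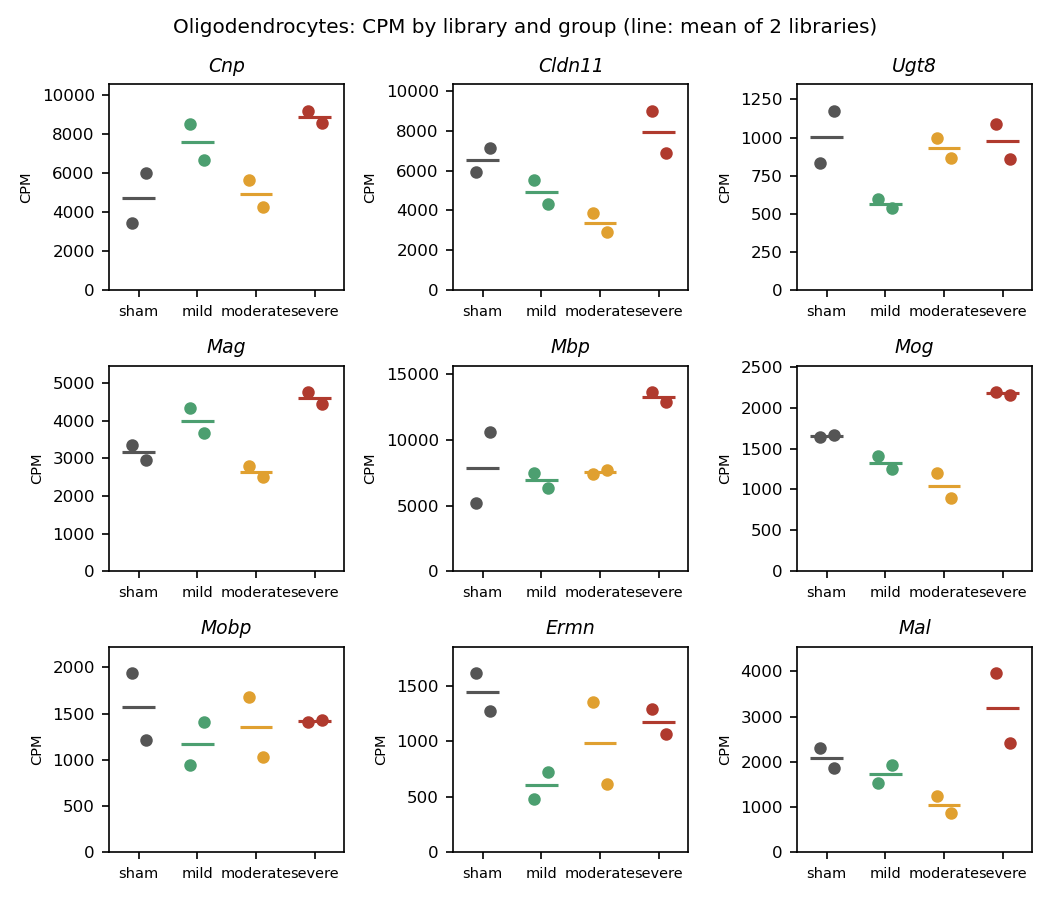
CPM of each gene in oligodendrocytes (vertical axis, linear from 0, a scale of its own for each panel) by group, 1 point per library and a line at the mean of 2 libraries. The severe libraries lie above the mild ones widely for Mbp (13585 and 12887 against 7480 and 6352) and narrowly for Cnp (8553 against 8531) and Mobp (1411 against 1407). No member passed the edgeR test in severe against mild.

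None of the 9 genes passed the test in oligodendrocytes in any contrast. In severe against mild, where 2.84% of the 9834 genes tested were called (1.33% higher, 1.5% lower), 0 of 9 members passed, 6 had an unadjusted p under 0.05, and DESeq2 called 5. All 9 log2 differences were above 0 with a median of 0.94, beside −0.06 over all genes. They were 1.21 ± 0.39 (SE) for Ermn (adjusted p = 0.128), 1.17 ± 0.38 for Mbp (adjusted p = 0.136), 1.12 ± 0.33 for Mal (adjusted p = 0.105), 1.02 ± 0.28 for Ugt8 (adjusted p = 0.0907) and 0.94 ± 0.27 for Mog (adjusted p = 0.0987). Cldn11 was at 0.91 ± 0.33 (adjusted p = 0.164), Mobp at 0.52 ± 0.34, Cnp at 0.45 ± 0.36 and Mag at 0.44 ± 0.27. The 5 genes that DESeq2 called were Ermn, Mal, Mbp, Mog and Ugt8, and edgeR called the same 5 when only the mild and severe libraries were fitted. Without sham 1 in the fit edgeR called Mbp (1.17, adjusted p = 0.0313) and Ugt8 (1.02, adjusted p = 0.0360), and without sham 2 it also called 2.

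Against sham the counts were also 0 of 9. In severe, where 0.844% of genes were called (0.356% higher, 0.488% lower), 5 had an unadjusted p under 0.05, DESeq2 called 1, Cnp, and the median log2 difference was 0.64 beside −0.09 over all genes. In mild, with 5.63% of genes called (2.55% higher, 3.08% lower), 2 had an unadjusted p under 0.05, DESeq2 called 1, Ermn, and the median was −0.31. In moderate, with 1.69% of genes called (1.09% higher, 0.6% lower), 3 had an unadjusted p under 0.05, DESeq2 called 2, Cldn11 and Mal, and the median was −0.42 with all 9 below 0. Without the 3 clusters with neutrophil or Schwann cell markers, which held 41.6% of the oligodendrocytes of sham 1, 15.6% of sham 2 and 0% to 13.7% of the other libraries, the counts stayed at 0. That fit was added after the data were seen. Without sham 2 the count rose in severe against sham, where the calls over all genes are not given, and without sham 1 no count against sham rose.

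Other values moved with the libraries. The mature cells of severe lay mostly in 1 lineage cluster, led by Apod, Ftl1 and Ppp1r14a. It had 52 cells of severe 1, 179 of severe 2, 20 of the 45 oligodendrocytes of sham 2 and none of mild or moderate. The mature cells of sham 1 lay in another with 734 of its cells, which also held 14 of sham 2, and those of mild and moderate lay in 3 others. The summed neutrophil markers in oligodendrocytes were 5342 CPM in sham 1 and at most 206 in the other 7 libraries. The summed macrophage markers there were 407 and 2994 CPM in sham, 521 and 724 in mild, 1532 and 515 in moderate, and 51.1 and 244 in severe, so that severe was below mild. The part of cluster, cell quality and library in the differences was not tested.

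Among 29 tested genes of a wider list of myelin and oligodendrocyte proteins, 4 rose in severe against mild and 0 fell. They were Opalin (log2 difference 1.69 ± 0.24), a membrane protein of mature oligodendrocytes, Car2 (2.44 ± 0.46), a carbonic anhydrase, and the tetraspanins Tspan2 (1.70 ± 0.35) and Cd9 (1.64 ± 0.35). In mild against sham, Opalin (−1.57 ± 0.24) and Tspan2 (−1.38 ± 0.35) fell. Of 19 tested genes of cholesterol synthesis, which supplies the main lipid of myelin, Srebf2 rose (1.29 ± 0.26) and Mvd fell (−1.57 ± 0.35) in severe against mild, and Fdps (−1.39 ± 0.29) and Fdft1 (−1.47 ± 0.31) fell in moderate against sham. Of 14 tested regulators of myelination, the inhibitor Id4 rose in mild against sham (1.13 ± 0.26), and none passed in the other 3 contrasts. Without sham 1, Opalin still fell in mild (−1.32, adjusted p = 0.0387), while Tspan2, Fdps, Fdft1 and Id4 were no longer called against sham.

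In oligodendrocyte precursors Ugt8 fell after moderate and severe injury, Mog after moderate and Mobp after severe injury, and these calls rested on the library sham 1. The level of Ugt8 was 266 and 61.8 CPM in sham, 31.7 and 59.8 in mild, 22.6 and 27.8 in moderate, and 15.1 and 22.5 in severe. Every injured library lay below both sham libraries, and sham 1 was far above sham 2. The log2 difference from sham was −2.63 ± 0.50 in moderate (adjusted p = 0.0113) and −2.66 ± 0.53 in severe (adjusted p = 0.0124), and −1.76 ± 0.49 in mild, which did not pass (adjusted p = 0.0510).

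Mog in precursors was at 48.5 and 5.37 CPM in sham, 8.68 and 20.2 in mild, 4.40 and 3.23 in moderate, and 1.51 and 9.41 in severe. It was called in moderate (−2.73 ± 0.78, adjusted p = 0.0493), close to the threshold, and 6 of the 8 fits that left out 1 library lost the call, those without mild 2 (adjusted p = 0.0611), severe 1 (adjusted p = 0.0521) or severe 2 (adjusted p = 0.0510) included. Mobp was at 45.4 and 1.34 CPM in sham, 5.86 and 14.4 in mild, 3.50 and 3.04 in moderate, and 0 and 1.05 in severe, from 0 UMIs in severe 1 and 8 in severe 2. It was called in severe (−4.29 ± 1.10, adjusted p = 0.0309). For both genes sham 1 was the highest library and sham 2 lay among the injured ones.

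Mbp in precursors was at 496 and 152 CPM in sham, 146 and 242 in mild, 83.0 and 69.5 in moderate, and 23.5 and 117 in severe, with moderate and severe below both sham libraries and no call. Cnp, the leading member there, was at 2077 and 1704 CPM in sham, 2196 and 2463 in mild, 1131 and 1075 in moderate, and 1248 and 1446 in severe. Its mild libraries were the highest pair and its moderate libraries the lowest.

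**Figure D4:**
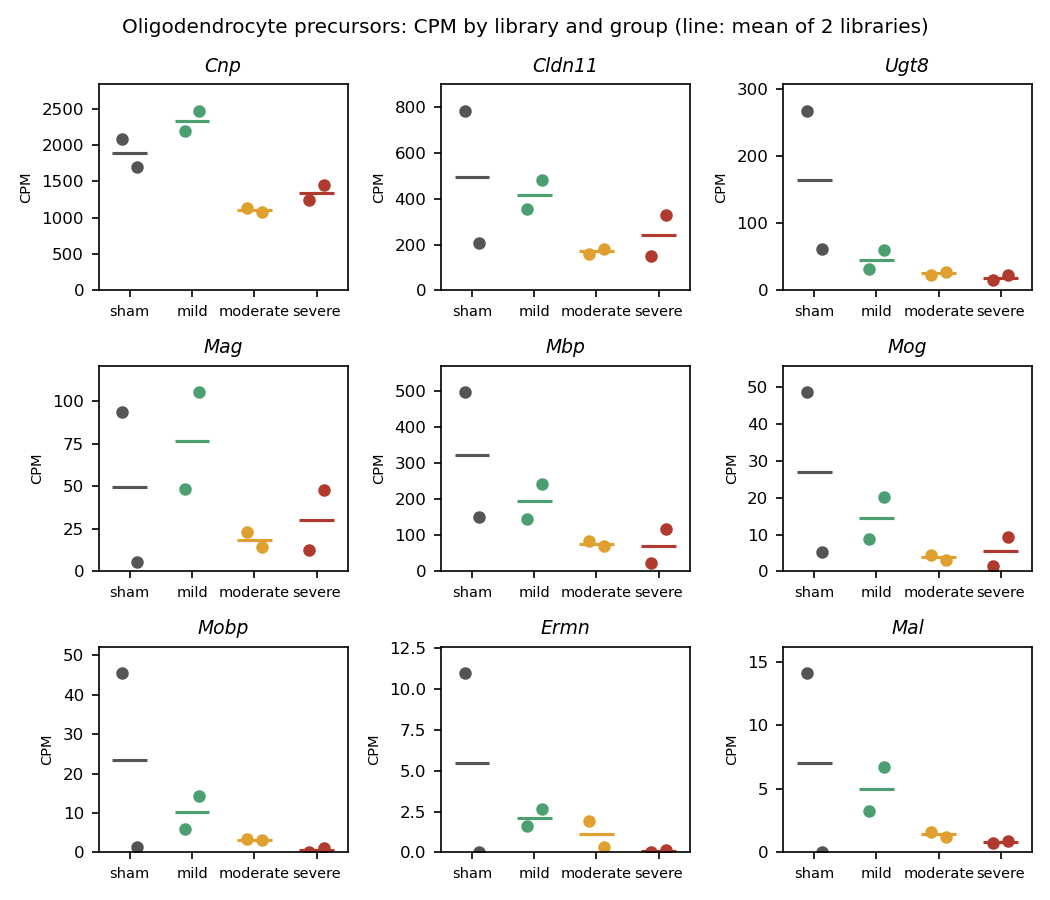
CPM of each gene in oligodendrocyte precursors (vertical axis, linear from 0, a scale of its own for each panel) by group, 1 point per library and a line at the mean of 2 libraries. Sham 1 is the highest point for Ugt8 (266), Mbp, Mog, Mobp, Cldn11, Ermn and Mal, and lies far from sham 2 in each of these panels.

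In all, 2 of 9 members fell in moderate against sham, where 8.4% of the 11946 genes tested were called, 4.37% as higher and 4.03% as lower. In severe against sham 2 of 9 fell, where 10.9% were called, 5.42% as higher and 5.44% as lower. In mild against sham 0 of 9 passed, with 6.86% of genes called (3.37% higher, 3.5% lower), 1 unadjusted p under 0.05 and 1 call by DESeq2. In severe against mild 0 of 9 passed, with 4.59% called (2.21% higher, 2.38% lower), 3 unadjusted p under 0.05 and 0 calls by DESeq2. The median log2 difference of the members was −0.67 in mild, −2.20 in moderate and −1.73 in severe, beside −0.02, 0.02 and −0.07 over all genes.

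Without sham 1, 0 of 9 passed in each injured group against sham, and the median of the members went to 1.51 in mild, −0.25 in moderate and 0.62 in severe. Ugt8 was then at −1.28 in moderate (adjusted p = 0.0906) and −1.26 in severe (adjusted p = 0.115), Mog at −0.50 and Mobp at −0.24. Without sham 2 more members were called in each injured group against sham. That fit rests on 1 sham library and its calls over all genes are not given, so no count is read from it. In severe against mild, 2 were called without either sham library, Mobp (−3.24) and Mal (−2.18) without sham 1. Leaving out either moderate library, or either severe library, also ended the calls in that group. The precursors of sham 1 carried 6333 CPM of summed neutrophil markers and 4413 CPM of fibroblast markers, beside 1 to 320 and 57 to 609 in the other libraries, and the part of these in the result was not tested.

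The committed cluster, where most members are far above the other precursors, made up 18.8% of the precursors of sham 1, 3.75% of sham 2, 7.61% and 13.8% of mild, 3.55% and 3.08% of moderate, and 1.41% and 7.10% of severe. Leaving it out was a choice made after the data were seen, and the share of all genes called in that fit is not given. Ugt8 then fell in all 3 injured groups against sham, by 1.55 on the log2 scale in mild (adjusted p = 0.0189), 1.95 in moderate (adjusted p = 0.00533) and 2.76 in severe (adjusted p = 0.00206). Mbp then fell in moderate (−1.55 ± 0.28) and severe (−2.80 ± 0.30), Mobp and Mag fell in severe (−4.24 ± 1.14 and −4.13 ± 1.05), and Mog was no longer called. Without that cluster Ugt8 was at 96.8 and 52.7 CPM in sham and at most 27.1 in the 6 injured libraries, Mbp was at 276 and 155 in sham, 75.3 and 66.4 in moderate and 22.9 and 24.5 in severe, Mag at 51.5 and 1.39 in sham and 0 and 1.22 in severe, and Mobp at 37.1 and 1.39 in sham and 0 and 0.81 in severe. Ugt8 and Mbp in moderate and severe thus lay below both sham libraries, whereas Mag and Mobp in severe lay far below sham 1 and close to sham 2. When sham 1 was left out as well, Ugt8 was at −1.07 in mild (adjusted p = 0.115) and still fell in moderate (−1.50, adjusted p = 0.0285) and severe (−2.28, adjusted p = 0.00632), Mbp still fell in moderate (−1.12, adjusted p = 0.0344) and severe (−2.33, adjusted p = 0.000818), and Mag (−0.06) and Mobp (−0.63) were not called.

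The other precursors of the groups lay in different clusters too. A cluster led by LOC108351137, LOC103694857 and Rps19 held 69 cells of severe 1, 324 of severe 2, 48 of sham 1, 46 of sham 2 and 1 of moderate. A cluster led by Atf3 and Vcan held 546 and 634 cells of moderate, a cluster led by C1ql1 and Mgp held 154 and 546 of mild, and a cluster of dividing cells held 179 and 299 of mild and 381 and 494 of moderate. The part of these clusters in the falls was not tested.

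Precursors moved in other lists too. Of 7 genes of dividing cells, 6 rose in each injured group against sham, Mki67 by 2.19 ± 0.27, 2.20 ± 0.27 and 1.34 ± 0.27 on the log2 scale in mild, moderate and severe. Of 27 tested genes of the wider myelin list, 3, 10 and 6 fell in mild, moderate and severe, and 0, 1 and 0 rose. Omg, the oligodendrocyte myelin glycoprotein, was at −1.61, −2.32 and −1.84, and Tspan2 at −2.10, −2.63 and −2.77. Fa2h, which makes the hydroxylated fatty acids of galactosylceramide made by Ugt8, fell in moderate (−2.48 ± 0.49) and severe (−2.72 ± 0.54).

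Of 16 tested regulators of myelination, 2, 5 and 5 fell and 0, 1 and 1 rose. The transcription factor Sox8 fell in all 3 groups (−1.72, −1.98 and −2.33), Olig2 fell in moderate (−1.28) and severe (−1.19), Nkx6-2 in moderate (−2.92) and Myrf, which drives the myelin programme, in severe (−2.08). The inhibitor Id4 rose in moderate (1.93) and severe (1.37). Of 7 tested genes of committed precursors, 0, 3 and 4 fell, among them Bmp4 (−2.44 in moderate and −2.27 in severe). Of 19 tested genes of cholesterol synthesis, 2, 3 and 4 fell and 0 rose, and Hmgcs1, an early enzyme of the pathway, fell in all 3 groups (−1.65, −2.10 and −2.60). All of these contrasts share the sham libraries with those of the members. Without sham 1, 4, 4 and 6 genes of dividing cells still rose in mild, moderate and severe, while 2, 6 and 2 of the wider myelin list, 0, 3 and 2 of the regulators, 0, 0 and 0 of the committed precursor genes and 0, 0 and 1 of cholesterol synthesis fell. Omg (−1.65, −2.39 and −1.90) then fell in all 3 groups, Sox8 in moderate (−1.75) and severe (−2.12) and Hmgcs1 in severe (−1.54), and Tspan2, Fa2h, Olig2, Nkx6-2, Myrf and Bmp4 were not called.

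Myelin RNA outside the lineage was low and was counted in every cell type. Free RNA in the suspension reaches all droplets, and macrophages can also hold RNA of engulfed cells, and UMIs of these sources look alike. After each cell was thinned to 1000 UMIs, 6.32% of macrophages and microglia had an Mbp UMI (Wilson 95% interval 5.99% to 6.66%), against 2.90% (2.06% to 4.06%) of erythrocytes, 11.9% of T and NK cells and 95.0% of oligodendrocytes. Unthinned, the shares were 41.5% at a median of 11546 UMIs in macrophages, 11.4% at 6612.5 in erythrocytes and 28.7% at 2996 in T and NK cells. For Mag the thinned shares were 0.710% in macrophages and 0.633% in erythrocytes, whose intervals overlapped. These shares pool libraries that differ, and 921 of the 1105 erythrocytes thinned were from severe 2. Within severe 2 the Mbp shares were 2.84% of macrophages (2.32% to 3.48%) and 2.50% of erythrocytes (1.67% to 3.72%), and in sham 1 they were 13.3% (9.99% to 17.5%) and 9.52% (4.91% to 17.7%), with overlapping intervals in both, and the CPM of Mbp in severe 2 was 44.9 in erythrocytes and 28.3 in macrophages. The intervals cover counting error only.

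In macrophages and microglia, Mbp was at 123 and 101 CPM in sham, 55.9 and 89.4 in mild, 74.3 and 48.3 in moderate, and 34.1 and 28.3 in severe. Both severe libraries were the lowest and both sham libraries the highest, although 21 cells of sham 2 carried much of its level, which was 59.5 CPM without cells of 20 or more Mbp UMIs, below mild 2 (87.7) and moderate 1 (69.8) taken in the same way, while severe was at 32.6 and 26.4. The log2 difference of severe from sham was −1.34 ± 0.32 (adjusted p = 0.0299), the 1 member called in a contrast with 14% of 12565 genes called, 7.74% as higher and 6.26% as lower. Mbp stayed between −1.40 and −1.22 when each library was left out, with the call kept without sham 1 (−1.32, adjusted p = 0.0424) and lost without severe 1 (adjusted p = 0.115) or severe 2 (adjusted p = 0.127). It was also lost with only the sham and severe libraries in the fit (adjusted p = 0.0594) and with the replicate number as a block (adjusted p = 0.0522). The macrophages and microglia of the groups lay in different clusters. Of 1042 cells in severe 1 and 3165 in severe 2, 870 and 2030 were in a cluster led by Cxcl1 and Ftl1 and 158 and 1065 in one led by Ccl4 and C1qa, which together held at most 15 cells of any other library. In sham 2, 1432 of 1953 cells were in the cluster with Cst3 among its leading genes. Most mild and moderate cells named as this type were in clusters led by C1qb, Apoc1 or Mki67. Unnamed clusters of 5135, 2008 and 619 cells also had macrophages and microglia as best-scoring type and are not in these levels and tests. The largest held 2515 and 1681 cells of mild 1 and mild 2, beside 1479 and 2832 named cells. Its Mbp was at 141 CPM in sham 1, 63.2 and 85.9 in mild, and 60.1 and 63.3 in moderate. The part of the named and unnamed clusters in the difference was not tested.

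Mag in macrophages was at 42.2 and 0.42 CPM in sham, 11.8 and 21.5 in mild, 6.04 and 3.68 in moderate, and 0.67 and 1.24 in severe. Cldn11 was at 61.6 and 0.79 in sham, 16.6 and 30.2 in mild, 9.50 and 6.77 in moderate, and 0.91 and 2.15 in severe. For both genes the sham libraries were the highest and the lowest of all 8, and the mild libraries lay above moderate and moderate above severe. The sham libraries thus gave no common level, and the median log2 difference of the members in severe against sham was −3.55 with both and 1.21 without sham 1. Against sham 2 alone, Mag and Cldn11 were called as higher in mild (5.18 and 4.75) and in moderate (3.45 and 3.28), where with both sham libraries neither passed. Against sham 1 alone, more members were called in moderate and in severe than with both sham libraries. The calls over all genes in that fit are not given, so no count is read from it.

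Mal went another way. It was at 17.0 and 0.61 CPM in sham, 2.12 and 7.34 in mild, 2.25 and 1.77 in moderate, and 11.6 and 5.85 in severe, so that severe 1 held 192 Mal UMIs beside 11 of Mag. No difference of Mal passed with all libraries, and without sham 1 it was called as higher in severe than in sham (4.19, adjusted p = 0.0201). In severe against mild the other 8 members were all below 0, none passed with 12.9% of genes called (7.35% higher, 5.59% lower), 5 had an unadjusted p under 0.05 and DESeq2 called 1. With only mild and severe in the fit, or without either sham library, edgeR called 6, 5 and 5 members in that contrast. The share of all genes called in these fits is not given. In mild (1% of genes called, 0.35% higher and 0.653% lower) and moderate (4.84% called, 3.21% higher and 1.63% lower) against sham 0 of 9 passed, with 0 and 2 unadjusted p under 0.05 and 0 calls by DESeq2 in both.

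T and NK cells, which are not phagocytes, gave a level to set beside that of macrophages within a library. Over 7 libraries with both types, 6 members were lower in macrophages in CPM and 0 were higher, where 57.1% of 10653 genes were called, 32% as higher and 25% as lower. Cnp was at −1.11 ± 0.15 on the log2 scale (adjusted p = 1.41e-05), Mog at −1.60 ± 0.37, Ugt8 at −1.82 ± 0.53, Cldn11 at −0.90 ± 0.33, Mag at −0.84 ± 0.28 and Mbp at −0.78 ± 0.22. Without sham 1, 3 members were called, and the share of all genes called in that fit is not given. The direction turned with the scale. Counted as UMIs per cell, all 9 were above 0 and 6 were called as higher in macrophages, with Mbp at 1.36 ± 0.24, Mag at 1.52 ± 0.35 and Mal at 2.45 ± 0.53, where 89.7% of genes were called, 84.8% as higher and 4.87% as lower. Macrophages had 94.4 to 415 CPM and 1.45 to 5.42 UMIs per cell of the 9 genes together, and T and NK cells 205 to 849 CPM and 0.652 to 2.58 UMIs per cell over the 7 libraries.

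Fibroblasts, with a median of 13791.5 UMIs per cell, beside 11546 in macrophages and 2996 in T and NK cells, were compared as an addition chosen after the data were seen. In CPM, Cnp (0.92 ± 0.20, adjusted p = 0.00177) and Mbp (0.94 ± 0.24, adjusted p = 0.00534) were higher in macrophages and Cldn11 was lower (−3.53 ± 0.61), with 60.3% of genes called, 30.5% as higher and 29.8% as lower. As UMIs per cell only Cldn11 passed (−3.93 ± 0.59), with 50.5% called, 16.8% as higher and 33.7% as lower, and Mbp was at 0.66 ± 0.27 (adjusted p = 0.0537). Mag was at 0.37 ± 0.18 in CPM and 0.02 ± 0.26 per cell, neither called.

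The genes were also set against each other within a library. Ratios in free RNA were not measured, and the source of the RNA was not tested. Over all libraries precursors held 77804 UMIs of Cnp and 6322 of Mbp, beside 284281 and 323265 in oligodendrocytes. Per UMI of Mag, oligodendrocytes held 1.54 to 3.58 UMIs of Mbp, 1.03 to 2.04 of Cnp and 1.17 to 2.41 of Cldn11. Macrophages held 1.36 to 1.89 UMIs of Cldn11 per Mag UMI, inside the range of oligodendrocytes in all 8 libraries. Their Mbp per Mag was 2.90 in sham 1, 4.73 and 4.15 in mild, 12.3 and 13.1 in moderate, 51.2 and 22.8 in severe and 240 in sham 2, above the oligodendrocytes of the same library each time. Their Cnp per Mag was likewise 2.44 in sham 1, 7.46 to 13.1 in mild and moderate, 69.8 and 54.1 in severe and 272 in sham 2. Libraries with few Mag UMIs in macrophages, 9 in sham 2 and 11 in severe 1, had the highest ratios. Such ratios were not particular to macrophages. In T and NK cells Mbp per Mag was 2.45 in sham 1, 4.57 and 6.83 in mild, 12.25 and 11 in moderate and 48.5 in severe 2. Their Cnp per Mag was 1.86 in sham 1 and 120 in severe 2. Outside sham 1 these rest on 1 to 14 Mag UMIs, and severe 1 had 0. In fibroblasts Mbp per Mag was 2.6 in sham 1 and 14.5 in severe 1, and Cnp per Mag 1.92 and 61.25, on 195 and 4 Mag UMIs.

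**Figure D5:**
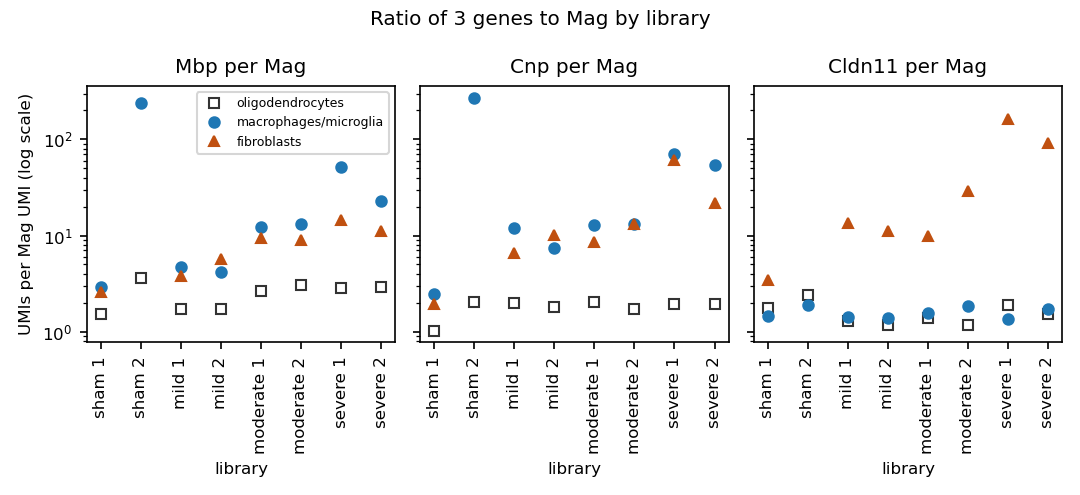
UMIs of Mbp, Cnp and Cldn11 per UMI of Mag (vertical axis, log scale) in oligodendrocytes (squares), macrophages and microglia (circles) and fibroblasts (triangles) of each library. Cldn11 per Mag lies between 1.17 and 2.41 in both oligodendrocytes and macrophages and reaches 162 in fibroblasts, in severe 1 with 4 Mag UMIs. The fibroblasts of sham 2 have 0 Mag UMIs and no point.

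The ratios of 3 pairs were tested against oligodendrocytes of the same library with an exact two-sided sign-flip permutation test over libraries. Cnp to Mbp in macrophages was higher than in oligodendrocytes in 8 of 8 libraries, by 0.92 ± 0.46 on the log2 scale (SD, n = 8, exact permutation p = 0.00781, adjusted over the 3 tests 0.0117). Cldn11 to Mbp in fibroblasts was higher in 8 of 8 libraries, by 2.12 ± 1.47 (SD, n = 8, exact permutation p = 0.00781, adjusted 0.0117). The difference in fibroblasts was 0.21 in sham 1 and 4.07 and 3.96 in severe. Mal to Mbp in T and NK cells was lower in 7 of 7 libraries, by 2.55 ± 1.20 on the log2 scale (SD, n = 7, exact permutation p = 0.0156). Each p is the smallest that its number of libraries allows. The last ratio rests on 0 to 4 Mal UMIs in each of the 6 injured libraries, and with a pseudocount of 5 UMIs it was no longer below the threshold.

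Single cells with many Mbp UMIs were found among macrophages and microglia, and sham 2 held more of them than any other library. Of 20569 cells, 43 had 20 or more Mbp UMIs, and 21 of these were among the 1953 of sham 2 (1.08%), while sham 1 had 0 of 316, which allows a share of up to 0.949%. The 21 cells held 901 Mbp UMIs, 41.8% of the Mbp UMIs of macrophages in that library, up to 113 in a cell. They held 40 UMIs of the other 8 members together, 26 of them Cnp, 3 Mag, 1 Cldn11 and 0 Mog. Of the 21, 15 lay in a cluster of 1680 cells with Cst3 among its leading genes, to which sham 2 gave 1432 cells. The Mbp locus also gives rise to golli transcripts from an upstream start, and 3′ counts do not tell these apart from those of myelin.

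Much of the Cldn11 in fibroblasts was carried by a few cells, though not in every library. Its level was 147 and 104 CPM in sham, 157 and 128 in mild, 60.4 and 148 in moderate, and 78.9 and 151 in severe, with all groups overlapping. Of 2252 fibroblasts, 86 (3.82%) had 10 or more Cldn11 UMIs and held 57.6% of the Cldn11 UMIs of the type, together with 10 Mag and 43 Mbp UMIs. Their share of the Cldn11 UMIs was 30.5% in sham 1 and 36.6% in moderate 1, up to 78.2% in moderate 2, and sham 2 had no such cell. Without them Cldn11 was still at 105 CPM in sham 1. The highest cell had 144 Cldn11 UMIs. These 86 cells had 10378 CPM of summed fibroblast markers, beside 27536 in the other fibroblasts, and were lower in each library that had them. Cldn11 is also known as a junction gene of the arachnoid barrier.

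Cnp was the highest member in dendritic cells and monocytes, where it was at 642 and 466 CPM in mild, 326 and 278 in moderate, and 427 and 268 in severe, while Mag there was at 0.47 to 27.6. The sham libraries had 2 and 12 of these cells and are not given. After thinning, 30.9% of them had a Cnp UMI (28.4% to 33.5%), against 0.543% of erythrocytes (0.249% to 1.18%), at median depths of 6626 and 6612.5 UMIs. Erythrocytes had the lowest pooled share of any type. Severe 2 gave 81.2% of the erythrocytes, so the pooled shares mix type with library. Unthinned, 22.9% of erythrocytes had a Cnp UMI in sham 1 and 4.48% in severe 2. The thinned share was 26.8% in astrocytes (23.8% to 30.1%), whose interval overlapped that of dendritic cells and monocytes. The share was 18.5% in T and NK cells, 13.2% in neutrophils, 8.93% in macrophages and microglia, 8.05% in endothelial cells and 6.67% in fibroblasts. Cnp is known to respond to interferon.

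Mal was also held by some cells of a cluster left unnamed, led by LOC100911104. In it, 83 of 5135 cells had 5 or more Mal UMIs, and 33 of these were among the 171 cells of sham 1, where they held 80.7% of the Mal UMIs. The summed macrophage markers were at 27647 CPM in the 83 cells and 21648 in the other cells of the cluster. Mal in this cluster was at 258 CPM in sham 1, 22.7 and 12.7 in mild, and 57.9 and 122 in moderate, beside 47.9, 13.8, 19.5, 7.14 and 6.33 CPM of Mag in the same libraries. Endothelial cells held 47.9 and 81.4 CPM of Mal in sham, 15.8 in mild 2, and 9.11 and 26.0 in severe, with Mag at 52.9, 3.54, 7.89, 0 and 2.44.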

How the data were processed

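Single-cell libraries of rat spinal cord were made by the authors with a droplet 3′ kit of version 3 and counted with Cell Ranger on the Rnor_6.0 genome, and the deposited values are raw UMI counts per gene and cell, with no normalization. Per the submitters' processing notes, Seurat was also used upstream.

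Cells with more than 10% mitochondrial UMIs, the 7.7% with the highest doublet scores in each library, and cells beyond 2 SD of the mean UMIs or genes were left out. The doublet share is the one stated for the study. Cells were clustered with Seurat 5.3.0 (4000 variable genes less the 9 members, 15 principal components, resolution 0.4, 23 clusters) and named from marker lists, and clusters whose leading genes went against a name were left unnamed, so cell types here may differ from those of the study. UMIs were summed per library and cell type where at least 20 cells were present and tested with edgeR 4.0.16 (filterByExpr, TMM, quasi-likelihood test, all 4 groups in 1 fit, Benjamini-Hochberg over all genes tested, threshold 0.05) in R 4.3.3. DESeq2 1.42.0 was an alternative. Macrophages were compared with T and NK cells with the library as a block. Ratios were tested with scipy 1.17.1 after adding 0.5 UMI, and clusters of the lineage were formed in the same way as those of all cells. The edgeR step was tested on simulated data. Sums of each library held 23573407 to 99320453 UMIs.

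Counts of called members between groups are out of all 9. Shares over all genes are printed for the main fits and mostly not for the alternative fits. A count from an alternative fit is thus no result about the members alone, since the calls over all genes may move with it. Levels by library are printed for all 9 in oligodendrocytes and for some members only in the other cell types. Genes of the other lists are named only where they passed the test. The members and lists were chosen with earlier results of these data known. Libraries of a group share a label and a number only, so p-values measure the spread between them, which may be technical. Alternatives were another tool, scaling, filter, block, set of groups, clustering, doublet step and leaving out each library. Columns of barcodes and gene names hold no measurement.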

Additional observations from a re-analysis of the deposited data

How the results depend on the processing

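Counts of called members depended on the processing, and they are given here mostly without the share of all genes called in the same fit. In oligodendrocytes, 0 became 1, 2, 5 and 1 with DESeq2 and 1, 2, 4 and 1 with no filter on low counts in mild, moderate, severe against mild and severe against sham, and 5 with only the 2 groups compared in severe against mild. Leaving out 1 library gave 0 to 0, 0 to 0, 0 to 2 and 0 to 2 in the same order. In precursors, mild against sham went from 0 to 1 with DESeq2, no filter, resolution 0.8 or without the committed cluster. Moderate against sham went from 2 to 4 with DESeq2, 7 with no filter, 1 with no doublet removal or scaling by total UMIs and 0 with only the 2 groups compared. Severe against mild went from 0 to 5 with no filter and 3 with only the 2 groups compared or without the committed cluster and 6 without that cluster and sham 1, where Mog in moderate against sham turned to 6.97, a value set by sham 2 at 0 and no bound. Severe against sham went from 2 to 6 with no filter, 4 without the committed cluster and 1 with no doublet removal or only the 2 groups compared. Leaving out 1 library gave 0 to 2, 0 to 7, 0 to 2 and 0 to 7. In macrophages, moderate against sham went from 0 to 6 with no filter. Severe against mild went from 0 to 1 with DESeq2, 8 with no filter, 6 with only the 2 groups compared and 3 with scaling by total UMIs. Severe against sham went from 1 to 3 with DESeq2, 7 with no filter and 0 with only the 2 groups compared. Leaving out 1 library gave 0 to 2, 0 to 5, 0 to 5 and 0 to 7 for mild, moderate, severe against mild and severe against sham. The cause was not tested.

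Between macrophages and T and NK cells, the 6 members called as lower in CPM were all above 0 as UMIs per cell. Their log2 differences were then 1.46 for Cldn11, 1.00 for Cnp, 1.52 for Mag, 1.36 for Mbp, 0.67 for Mog and 0.48 for Ugt8. On that scale edgeR called 6 members as higher, but not Mog (adjusted p = 0.158) or Ugt8 (adjusted p = 0.418). In CPM, leaving out 1 library gave 3 to 6 calls. Against fibroblasts, UMIs per cell left 1 call, for Cldn11. Mal to Mbp in T and NK cells was −0.71 with a pseudocount of 5 UMIs and −2.49 with at least 100 cells (exact permutation adjusted p = 0.125 for both, the second over 4 libraries, too few to reach the threshold). The other 2 ratios kept their direction and side of the threshold under each alternative tried.

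Deviations of same-numbered libraries had r of −0.337 to 0.092 over 6 pairs of groups in each of 3 cell types. The numbers were not used as pairs in the main fits, and a shared batch was not tested. With the number as a block the called members went to 1 in moderate and stayed at 2 in severe for precursors, went to 0 in severe against sham for macrophages, and stayed at 0 elsewhere. Some r were under −0.1, and a block with the numbers crossed in sham for oligodendrocytes, mild and severe for precursors and moderate for macrophages, added after the data were seen, gave 0, 0, 1 and 0, 1, 3, 1 and 4, and 0, 0, 1 and 1 calls in mild, moderate, severe against mild and severe against sham.

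Over all genes, severe against mild in oligodendrocytes went from 279 calls to 932 with no filter, 533 with only the 2 groups compared and 157 with the block. The sham libraries limit each contrast with sham, since they differ in depth and in cells. Mobp in precursors of severe rests on 8 UMIs, and its value of −10.0 without severe 2 is set by a library at 0 and is no bound.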
